A study of Rattus norvegicus with 50 samples.

Results

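The lungs described here came from rats that had inhaled titanium dioxide particles, examined on the day the exposure ended (D0) and 28 days later (D28). The members were the 5 arrays labelled exposed D28 and the 5 labelled exposed D0, 10 of the 50 arrays of the series, chosen by those labels alone. All rats were 12-week-old male F344 animals, an inbred strain. The exposed rats breathed, through the nose only, a 10 mg/m3 aerosol of TiO2 P25 nanoparticles for 6 hours a day on 5 days a week over 4 weeks, and the control rats breathed filtered air. Each array held RNA from the accessory lobe of 1 rat, and different rats were used at each time, so D28 animals were also 28 days older than D0 animals. Age and time since exposure cannot be told apart within the exposed rats. The 5 control D0 and 5 control D28 arrays span the same interval and were used for that comparison. Each lobe is a mixture of cells, in which fewer cells of a type and less RNA per cell cannot be told apart.

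Poorly soluble particles that reach the alveoli are taken up by alveolar macrophages, the phagocytes that live on the airway surface. Particle-laden macrophages and the epithelium release chemokines, small secreted proteins that draw monocytes and neutrophils from the blood, together with cytokines such as TNF and IL-1, and many of these genes are switched on through the transcription factor NF-kB. When exposure stops, transcripts of short-lived inflammatory messengers can fall while particles still lie in the tissue, and products of macrophages loaded with material can persist longer. The question of the comparison was which transcripts differed after 4 weeks of clean air, and whether that difference was larger than the one between control rats over the same time.

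Values are log2 signals after quantile normalization, so a difference of 1 is a doubling, and a gene is called where its adjusted p (limma, Benjamini-Hochberg over all genes tested) was below 0.05 and its difference was at least 1.5-fold. Over the 10 exposed arrays, the median signal ran from 198 to 451 and the share of gene spots well above background from 71.8% to 80.3%. Lung markers were strongly expressed. Sftpc, the surfactant protein C of alveolar type 2 cells, averaged 18.86 ± 0.20 (SD, n = 5) at D0 and 18.83 ± 0.17 at D28. Slides separated the arrays more than the groups did: the first principal component of the 20 D0 and D28 arrays held 25.8% of the variance, of which slide accounted for 97.5% and group for 6.51%. Of the 4 slides, 3 held both exposed groups, and a fit with slide as a block stands beside the counts for that reason. On slide 1 the 2 exposed D0 arrays were scanned on scan day 1 and the exposed D28 array on scan day 2. Group and scan day cannot be told apart among the exposed arrays of that slide. The lung labelled exposed D28 replicate 2 stood apart in skeletal muscle genes. Its mean over 15 cardiac and skeletal muscle genes was 10.46, against 8.71 to 8.91 in the other 4 exposed D28 lungs and 8.26 to 8.99 at D0, and Mylpf, a skeletal myosin light chain, read 12.85 in it and 6.10 to 6.63 in the others. Without that lung, 150 of 185 genes called higher and 140 of 174 called lower kept their call. The muscle genes Pygm, Ryr1 and Car3, among those called higher, lost it, with log2 differences of 0.50 (adjusted p = 0.016, under the fold limit), 0.48 (adjusted p = 0.27) and 0.83 (adjusted p = 0.19).

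Between D0 and D28, 359 of 25208 genes tested were called in exposed lungs, which is 1.42% of them. Of these, 185 (0.734%) were higher and 174 (0.69%) lower at D28, with median differences of 1.82-fold and 1.87-fold. Scaling each array to its 75th percentile instead of quantile normalization gave 130 higher and 239 lower. With slide as a block, 518 genes (2.05%) were called, and 331 of the 359 were called the same way. With slide and scan day as a block, chosen after seeing the data, 458 were called, and 300 of the 359 were called the same way. Of the 359, 347 had the same sign within each of the 3 slides that held both groups, as did 10008 of all genes tested (39.7%). The 5 D28 rats did not overlap the 5 D0 rats for 252 of the 359, against 968 (3.84%) of all genes, of which 501 (1.99%) were lower and 467 (1.85%) higher at D28. At an unadjusted p under 0.05, without a fold limit, 3521 genes (14%) passed.

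The control rats also differed between the 2 days, so the exposed differences were set against theirs. In controls, 627 genes (2.49%) were called, 389 (1.54%) higher and 238 (0.944%) lower at D28. Of the 185 genes higher in exposed lungs, 60 were also called higher in controls and 4 lower. Of the 174 genes lower in exposed lungs, 21 were also called lower in controls and 8 higher. The difference of the 2 changes (exposed D28 minus D0, less control D28 minus D0), which uses the same exposed arrays, was called for 405 genes (1.61%), 138 positive (0.547%) and 267 negative (1.06%), and for 646 (2.56%) with slide as a block. Genes that were called in exposed lungs and whose change also differed from that of controls in the same direction numbered 93 (0.369%), 70 lower (0.278%) and 23 higher (0.0912%). With slide as a block they numbered 150 (0.595%), 97 lower (0.385%) and 53 higher (0.21%), and 85 of the 93 were in both fits.

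**Figure D1:**
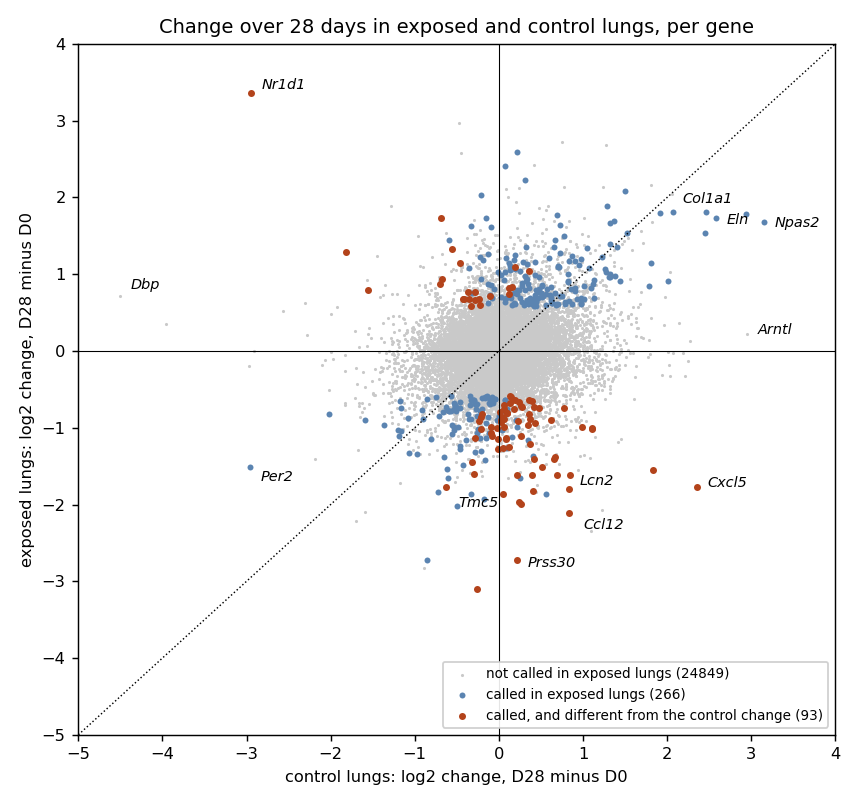
Log2 change from D0 to D28 in control lungs (x axis) and in exposed lungs (y axis), 1 point per gene, 25208 genes. The dotted line marks equal change: the 93 genes whose exposed change was called and differed from control lie mostly below 0 and to the right of the line, and matrix genes such as Col1a1 and Eln lie at the upper right, higher at D28 in both.

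Of the 174 genes lower at D28, 141 had an exposed mean above the control mean at D0, and 89 did so at D28. The exposed mean exceeded the control mean of the same day by a median of 0.86 at D0 and of 0.02 at D28, on the log2 scale. At D0 all 5 exposed rats lay above all 5 controls for 92 of them, where 1200 of all genes tested (4.76%) did so. At D28 this held for 22 (562 of all genes, 2.23%), while 13 lay wholly below the controls (395 of all genes, 1.57%). The 185 higher genes had median distances from the controls of -0.17 at D0 and 0.14 at D28. Between the control days the same genes differed by a median of 0.43. Their exposed mean lay above the control mean for 53 at D0 and for 131 at D28. At D0 all 5 exposed rats lay below all 5 controls for 29 of them (950 of all genes, 3.77%) and above for 4. At D28 they lay above for 21 (562 of all genes, 2.23%) and below for 9 (395 of all genes, 1.57%). Since the exposed arrays enter both the choice of these genes and their distances, these medians and counts are a description.

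Chemokine ligands made up the largest block of decreases among the 35 gene lists. Of 35 ligands tested, 9 were called lower and 0 higher in exposed lungs (25.7% of the list called lower, against 0.69% of all genes), with a median log2 difference of -0.16 over the list against -0.01 over all genes. In controls, 0 ligands were called lower and 4 higher, and the list median was 0.24. The difference of the changes was called for 10 ligands, all negative. The mean over the 35 ligands lay between 10.64 and 10.87 in the 5 exposed D0 rats and between 10.14 and 10.38 in the 5 exposed D28 rats, and these did not overlap.

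Ccl12, a ligand of the monocyte receptor CCR2, read 8.48, 8.89, 9.88, 8.53 and 9.40 in the exposed D0 rats and 7.69, 6.66, 7.14, 6.46 and 6.67 in the exposed D28 rats. Every D28 value lay below every D0 value, a log2 change of -2.11 ± 0.41 (SE), or 4.31-fold (limma adjusted p = 0.00078). Controls averaged 6.19 ± 0.65 (SD, n = 5) at D0 and 7.02 ± 1.14 at D28, so the exposed lungs were back within the range of the controls. Ccl2, which also acts on CCR2, read 12.64, 12.39, 13.09, 12.41 and 13.13 at D0 and 11.42, 11.59, 11.32, 11.47 and 10.98 at D28, a change of -1.38 ± 0.23 (SE, limma adjusted p = 6.3e-05). Its control means were 10.18 ± 0.35 and 10.84 ± 0.54. Ccl7, another monocyte attractant, fell from 9.98 ± 0.36 to 8.57 ± 0.16 (SD, n = 5), a change of -1.41 with a limma adjusted p of 0.00014, and the D0 and D28 rats did not overlap. The 3 changes differed from those of controls by -2.94, -2.04 and -1.82.

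Of the ligands of the neutrophil receptor CXCR2, Cxcl1 and Cxcl5 were called lower. Cxcl1 read 14.09, 14.54, 14.10, 14.56 and 14.26 at D0 and 12.78, 13.01, 12.44, 12.76 and 11.21 at D28, without overlap, and fell by 1.87 ± 0.25 (SE, limma adjusted p = 1.4e-06). The exposed D28 mean of 12.44 ± 0.71 lay within 1 SD of the control means, 12.59 ± 0.39 at D0 and 12.64 ± 0.35 at D28. Cxcl5 read 6.68, 7.36, 7.73, 7.24 and 7.99 at D0 and 6.27, 6.22, 5.45, 4.99 and 5.23 at D28, again without overlap (change -1.77 ± 0.35, limma adjusted p = 0.00077). It was not well above background on any control D0 array, and it averaged 5.60 ± 1.14 in control D28 lungs. Cxcl2 read 12.37, 12.66, 12.32, 13.03 and 12.58 at D0 and 11.70, 12.30, 11.79, 12.05 and 10.51 at D28, a difference of -0.92 with a 95% interval from -1.63 to -0.20 that was not called (limma adjusted p = 0.17). Cxcl3 and Ppbp, also ligands of it, differed by 0.14 and 0.00 and were not called. Whether these ligands differed from each other was not tested. The lung labelled exposed D28 replicate 5 was the lowest for Cxcl1, Cxcl2, Ccl2 and Tnf.

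The other ligands called lower were Ccl20, Cx3cl1, Ccl17 and Ccl28. Ccl20, which attracts CCR6-bearing lymphocytes and dendritic cells, read 10.21, 10.33, 10.26, 10.72 and 10.37 at D0 and 8.70, 8.91, 8.79, 9.08 and 8.38 at D28, a 3.04-fold decrease without overlap (limma adjusted p = 1e-11), and its D28 mean of 8.77 was near the control D28 mean of 8.80. Cx3cl1, the membrane-bound fractalkine, fell by 0.90 to 13.40, where controls stood at 13.53 at D28 after 12.91 at D0. Ccl17, a CCR4 ligand, fell by 0.94, and Ccl28, a mucosal ligand of CCR10 and CCR3, by 1.03.

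Windows of the promoters are shown for the 2 ligands called lower that matched the NF-kB consensus motif within 250 bases before their start. The ligands called lower share a direction by the way they were chosen. Both strands were searched, and overlapping matches were kept. Of the 9 ligands called lower, 7 had a promoter in the RefSeq table (build GRCr8) and 2 of them (28.6%) held a match. So did 6 of 27 promoters of all ligands tested (22.2%) and 1185 of 33469 promoters in the table (3.54%). Cxcl2, which was not called, held 3 matches. A looser pattern, which fixes 6 of the 10 bases and was searched first, matched 4 of the 7, 13 of the 27 (48.1%) and 5498 of the whole table (16.4%). Each sequence is given 5′ to 3′ on the strand of its gene, with the consensus matches in capitals. They lie at chr14:17479380-17479420 on the minus strand for Cxcl1 and at chr9:91837055-91837094 on the plus strand for Ccl20.
Cxcl1: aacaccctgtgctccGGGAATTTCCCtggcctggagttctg
Ccl20: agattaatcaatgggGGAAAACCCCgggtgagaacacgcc
A match describes the letters only, and no binding was measured in these lungs.

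**Figure D2:**
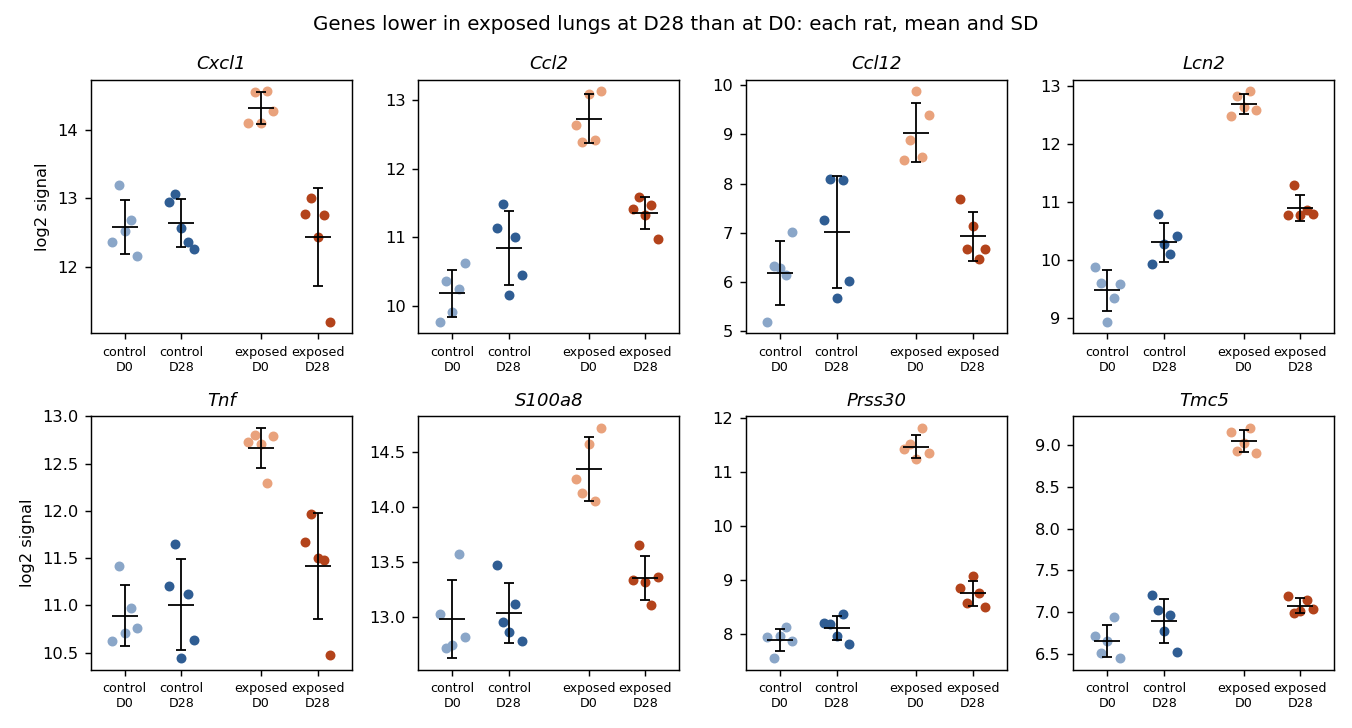
Log2 signal of 8 genes called lower in exposed lungs at D28, 1 point per rat, with the group mean (bar) and SD (whiskers), 5 rats per group. In each panel the exposed D0 rats lie above all other groups, and the exposed D28 means lie near or above the control means. For Cxcl1 the lowest exposed D28 rat lies below the control rats.

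Among 30 cytokines and innate sensors, 3 were called lower and 0 higher (10.0% lower against 0.69%). Tnf, the macrophage cytokine, read 12.73, 12.81, 12.71, 12.30 and 12.80 at D0 and 11.67, 11.96, 11.50, 11.48 and 10.47 at D28. The groups did not overlap, and the decrease of 1.25 ± 0.22 (SE, limma adjusted p = 0.00018) differed from the control change of 0.12. Il1b, which encodes the precursor of the cytokine IL-1beta, fell by 0.77 ± 0.16 (limma adjusted p = 0.0015), from 12.65 to 13.18 over the D0 rats to 11.64 to 12.33 over the D28 rats. Controls fell by 0.62 over the same days, and the difference of the changes, -0.15, was not called. The third, Il6, was not well above background on any of the 20 arrays, so its difference has no level behind it.

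Tnfrsf9, a costimulatory TNF receptor of activated T cells known as 4-1BB, read 7.58, 7.75, 8.40, 8.08 and 8.23 at D0 and 6.45, 6.26, 6.53, 5.77 and 5.91 at D28, a decrease of 1.83 ± 0.20 (limma adjusted p = 9.3e-09) without overlap, to the level of controls (6.14 ± 0.52 at D28). Il13, the type 2 cytokine, was well above background on all 5 exposed D0 arrays and on 0 of 5 at D28, which makes it at least 3.69-fold lower (limma adjusted p = 0.0034). It was dim at D0 too, between 4.25 and 6.11, and its change differed from that of controls by a called amount with slide as a block (-2.08, limma adjusted p = 0.013) but not without it (-1.75, adjusted p = 0.13). Il13ra2, its decoy receptor, rose by 1.45 ± 0.25 (limma adjusted p = 0.00012), from between 4.12 and 5.29 to between 5.98 and 6.35.

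Genes that act on NF-kB or are known as its targets were also among the 174, named here after their values were seen. Zc3h12a, an RNase that degrades cytokine messages, fell by 1.11 ± 0.09 (limma adjusted p = 1e-11). Ltb, a lymphotoxin subunit, fell by 1.01 and Birc3, an inhibitor of apoptosis, by 1.02. Sod2, the mitochondrial superoxide dismutase, fell 2.15-fold, from 13.93 ± 0.20 to 12.83 ± 0.12, with control means of 12.42 and 12.68. Bcl3, a nuclear partner of NF-kB, fell by 1.06. For all 5 the D0 and D28 rats did not overlap, as for 133 of the 174 genes called lower. Their changes also differed from controls by a called amount, as for 70 of the 174. These 5 stand for no wider group, and NF-kB activity was not tested.

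Of 22 acute phase and mucosal defence genes, 4 were called lower and 0 higher (18.2% lower). Lcn2, the iron-sequestering lipocalin, read 12.49, 12.82, 12.63, 12.91 and 12.59 at D0 and 10.77, 11.28, 10.78, 10.85 and 10.78 at D28. It fell 3.47-fold without overlap (log2 change -1.79 ± 0.21, limma adjusted p = 6.6e-08), while controls rose by 0.83 from 9.47 ± 0.36 to 10.30 ± 0.33. Slc26a4, the anion exchanger pendrin, fell by 1.01 ± 0.17 (limma adjusted p = 6.7e-05) to between 9.83 and 10.20. All 5 of those rats stayed above the control D28 mean of 8.93 ± 0.42. The other 2 were Serpina3n, a serpin of the acute phase, and Duox2, the peroxide-making dual oxidase, lower by 0.76 and 0.64.

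Of 22 neutrophil genes, 4 were called lower and 0 higher (18.2% lower), and 6 with slide as a block. S100a8 and S100a9 form calprotectin, the main cytosolic protein of neutrophils. S100a8 read 14.26, 14.13, 14.57, 14.06 and 14.72 at D0 and 13.34, 13.66, 13.32, 13.11 and 13.37 at D28 (change -0.99 ± 0.16, limma adjusted p = 3.3e-05). S100a9 fell by 0.79 ± 0.17 (limma adjusted p = 0.0018), from between 16.08 and 16.62 to between 15.18 and 15.75, and stayed above the control D28 mean of 14.64 ± 0.35 in every rat. Cd177, a neutrophil surface antigen, fell by 0.72 to 13.56 ± 0.27, still above the controls at 12.13, and Cxcr2, the receptor for the CXC ligands above, fell by 0.78 to 8.04, where controls stood at 8.23. The list median was -0.06. Of the 22 differences, 14 were negative and 8 positive, among the latter Ngp (0.85) and Fpr1 (0.44), neither of them called.

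The largest called decrease with a gene symbol was that of Prss30, a serine protease. It read 11.43, 11.51, 11.25, 11.82 and 11.35 at D0 and 8.85, 8.57, 9.08, 8.76 and 8.50 at D28, a 6.58-fold decrease (log2 change -2.72 ± 0.28, limma adjusted p = 4.1e-09), with -2.90, -2.39 and -2.89 within the 3 slides. Controls stood at 7.89 ± 0.21 and 8.10 ± 0.22, so all 5 exposed D28 rats were above the control mean. Tmc5, a channel-like membrane protein, read 9.16, 8.92, 9.03, 9.20 and 8.91 at D0 and 7.20, 6.99, 7.02, 7.14 and 7.03 at D28 (3.91-fold lower, limma adjusted p = 3.2e-10), with 6.90 ± 0.26 in control D28 lungs. Tnn, the matrix protein tenascin-N, fell by 2.00 ± 0.33, and at D28 it was well above background in 3 of 5 rats. Rasgef1c, a guanine nucleotide exchange factor, fell by 1.86 ± 0.35 to between 4.17 and 4.87, and at D28 it was well above background in 2 of 5. Bpifb1, a secreted airway protein, fell by 0.97 ± 0.25 (limma adjusted p = 0.017) to between 11.79 and 12.44, which stayed above the control D28 mean of 10.84 ± 0.25.

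Several transcripts that were high in exposed lungs at D0 were not called lower at D28. Retnla, a secreted product of alternatively activated macrophages and epithelium, read 13.91, 13.34, 14.09, 13.49 and 13.87 at D0 and 13.46, 13.81, 13.57, 13.53 and 13.87 at D28. The ranges overlapped almost wholly, and the difference of -0.09 had a 95% interval from -0.45 to 0.27 (limma adjusted p = 0.92). Controls lay between 9.53 and 10.73 at D0 and between 10.83 and 11.27 at D28, so every exposed rat lay above the controls on both days. Spp1, the macrophage product osteopontin, read 11.16, 10.53, 11.51, 10.78 and 11.46 at D0 and 10.86, 11.11, 11.30, 11.13 and 11.91 at D28 (difference 0.17, 95% interval -0.38 to 0.72), with controls at 8.69 ± 0.61 and 9.32 ± 0.51. With slide and scan day together as a block the difference was -0.10, so it has no settled direction.

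Lpo, the airway lactoperoxidase, read 9.57, 9.38, 9.70, 9.34 and 9.57 at D0 and 10.01, 10.55, 9.65, 9.99 and 10.69 at D28. The difference of 0.67 (95% interval 0.07 to 1.26) was not called (limma adjusted p = 0.27), and controls stood near 6.9 on both days. Orm1, an acute phase glycoprotein, averaged 9.29 ± 0.14 at D0 and 8.63 ± 0.36 at D28 (difference -0.66, 95% interval -1.43 to 0.11), against 5.21 ± 0.59 and 3.93 ± 0.89 in controls. Mmp12, the macrophage elastase, averaged 10.66 and 10.46, a difference of -0.20 with an interval from -0.56 to 0.17. This change differed from that of controls by -1.04. C3, the central complement protein, read 16.19 to 16.37 at D0 and 15.71 to 15.90 at D28, without overlap. Its difference of -0.49 ± 0.08 passed the p limit (limma adjusted p = 5.2e-05) but not the fold limit.

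The list of 20 genes of lipid-associated macrophages, the phagocytes that store ingested lipid and debris, had 0 calls in either direction in exposed lungs and a median of 0.07. Its mean ran from 13.08 to 13.47 at D0 and from 13.13 to 13.44 at D28, and in controls from 12.60 to 12.81 at D0 and from 12.79 to 13.12 at D28. In controls, 3 genes of the list were called higher and 1 lower. The difference of the changes was called negative for 3 (15% against 1.06% of all genes) and positive for 1 (5% against 0.547%). It was negative for 16 of the 20 genes and positive for 4, with a median of -0.25. The 25 lysosomal genes had 0 calls in exposed lungs. Among 13 genes of resident alveolar macrophages, Cidec, a lipid droplet protein, rose by 0.93 ± 0.22 (limma adjusted p = 0.0062), the median was 0.20, and 11 of 13 had a positive difference against 2 negative. Controls had the same split, 11 positive and 2 negative, with a median of 0.14. The difference of the changes was positive for 8 of the 13 and negative for 5, with a median of 0.07.

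**Figure D3:**
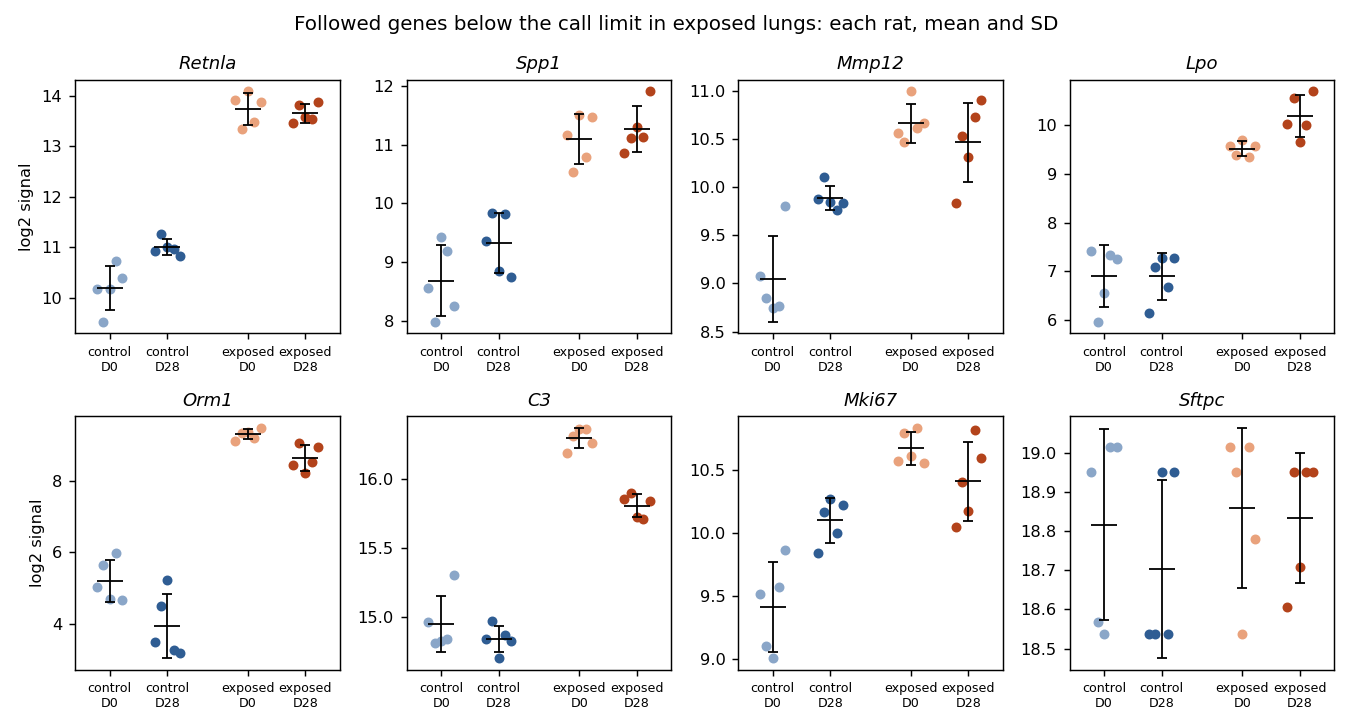
Log2 signal of 8 genes that were followed throughout and not called in exposed lungs between D0 and D28, 1 point per rat, with mean and SD, 5 rats per group. Retnla, Spp1, Lpo and Orm1 stay well above the controls on both days, whereas Sftpc lies between 18.54 and 19.01 in the exposed rats of both days.

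Averaged over their list, cell cycle genes stood at 8.84 in exposed and 7.81 in control lungs at D0. At D28 they stood at 8.65 and 8.36, and the ranges of the rats overlapped. Of 41 cell cycle and DNA replication genes, 1 was called lower and 0 higher in exposed lungs (2.44% lower), with a median of -0.20 and 35 of 41 differences negative. The one called was Aurkb, a mitotic kinase, which fell by 0.64 ± 0.16 (limma adjusted p = 0.0086). The 41-gene mean ran from 8.72 to 8.97 at D0 and from 8.52 to 8.78 at D28. In controls it ran from 7.75 to 7.96 at D0 and from 8.26 to 8.53 at D28, and 18 of the 41 were called higher at D28 (43.9% against 1.54%). The difference of the changes was called for 20 genes, all negative. Mki67, the proliferation antigen, read 10.57, 10.80, 10.61, 10.83 and 10.56 in exposed D0 rats and 10.04, 10.41, 10.18, 10.82 and 10.60 in exposed D28 rats, a difference of -0.26 that was not called (95% interval -0.52 to 0.00), and it rose from 9.41 ± 0.36 to 10.10 ± 0.18 in controls. Top2a, a topoisomerase of dividing cells, averaged 8.76 and 8.51 in exposed rats, and 6.82 and 8.24 in controls.

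Extracellular matrix genes were higher at D28 in both exposed and control lungs. Of 37 tested, 9 were called higher and 0 lower in exposed lungs (24.3% against 0.734%), with a median of 0.48, and 8 were called higher and 0 lower in controls, with a median of 0.23. The difference of the changes was called positive for 2 and negative for 1, and with slide as a block for 0 and 2. Col1a1, a chain of type I collagen, read 10.98, 11.09, 11.43, 11.35 and 11.40 at D0 and 13.40, 13.17, 13.13, 12.84 and 12.78 at D28, a 3.51-fold rise (log2 change 1.81 ± 0.14, limma adjusted p = 7.9e-12), next to 2.08 in controls. Eln, the elastic fibre protein, read 10.98, 11.02, 11.41, 11.06 and 11.53 at D0 and 13.78, 12.94, 13.04, 12.61 and 12.28 at D28 (change 1.73 ± 0.20, limma adjusted p = 6.6e-08), and controls rose by 2.58. The differences of the changes, -0.26 for Col1a1 and -0.85 for Eln, were not called, but with slide as a block that of Eln was (-0.75, limma adjusted p = 0.042). Second probes of these genes gave 1.29 and 0.79.

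The other 7 matrix genes called higher were Col3a1 (by 1.03), Col15a1 (by 0.91), the lysyl oxidases Loxl1 (0.98) and Loxl2 (0.76), tenascin-C or Tnc (1.17), fibrillin Fbn1 (0.73) and the proteoglycan Lum (0.82). Their D0 and D28 rats did not overlap. Fbln5 and Mfap5, both elastic fibre components, were the 2 with a called positive difference of the changes (0.65 and 0.59), and neither was called with slide as a block. Their exposed means rose from 9.11 to 9.68 and from 12.31 to 12.82, short of the fold limit, while control means were 9.57 and 9.49 for Fbln5 and 12.99 and 12.90 for Mfap5.

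Other large increases in exposed lungs were also seen in controls. Spon2, a secreted matrix protein, rose by 1.81 ± 0.19, from 7.75 ± 0.31 to 9.56 ± 0.42, and controls rose by 2.47. Cadps, a vesicle priming protein, rose by 2.08 (1.49 in controls; a second, dim probe gave 0.36), Slc6a7, a proline transporter, by 1.80 (1.92), and Dnase2b, an acid nuclease, by 1.78 (2.94). None of these 4 had a called difference of the changes. Slc6a7 was dim, well above background on 2 arrays at D0 and 3 at D28, and with normexp background correction its difference was 0.44.

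**Figure D4:**
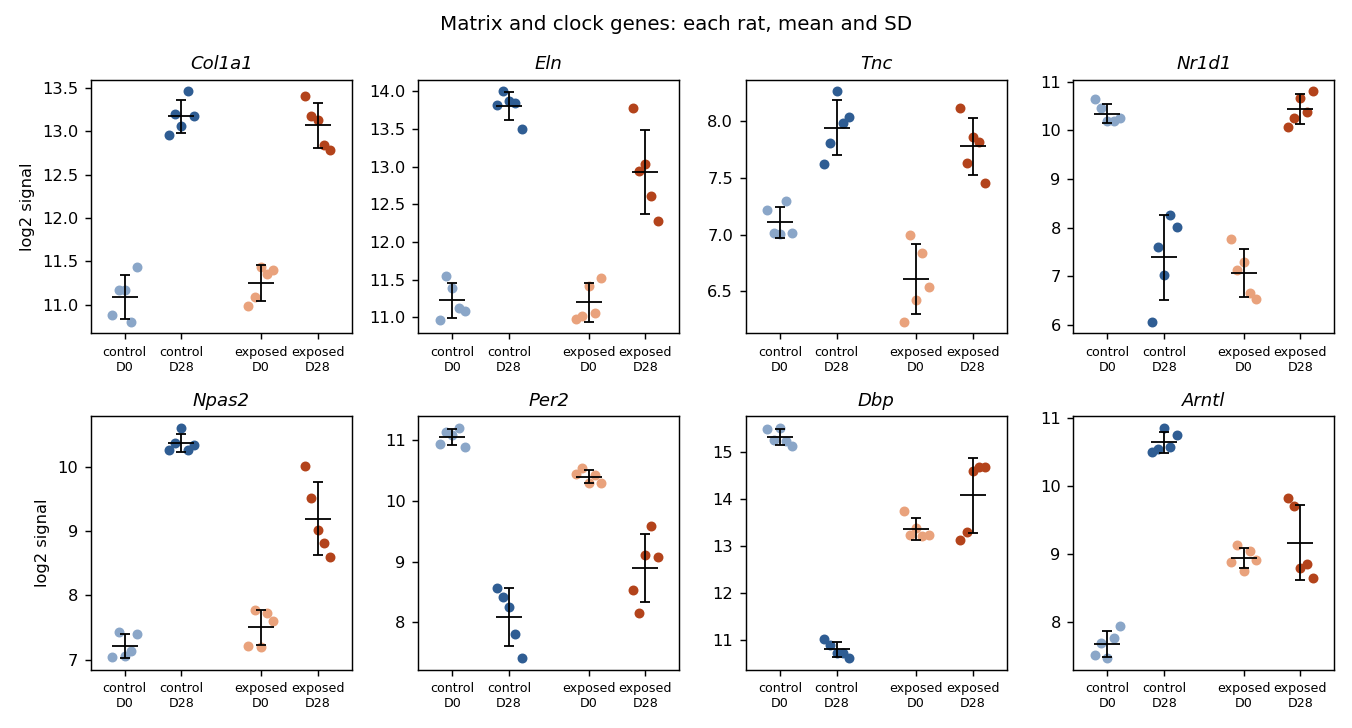
Log2 signal of 3 matrix genes and 5 clock genes, 1 point per rat, with mean and SD, 5 rats per group. Matrix genes are higher at D28 in both control and exposed rats, whereas Nr1d1 moves in opposite directions and Dbp and Arntl differ by -4.51 and 2.95 between control days and by 0.71 and 0.22 between exposed days.

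Of the named genes, the clock genes Nr1d1 and Dbp had the widest gaps between the exposed and the control change. The circadian clock runs in most lung cells: Arntl and Npas2 drive transcription, Per, Cry and Nr1d1 proteins repress it, and Dbp is a direct output, so that these transcripts change with the hour of the day. The hour at which lungs were taken was not given in the sources used here. Nr1d1 read 7.76, 7.13, 7.29, 6.65 and 6.54 in exposed D0 rats and 10.06, 10.25, 10.67, 10.38 and 10.80 in exposed D28 rats, a 10.3-fold rise (log2 change 3.36 ± 0.33, limma adjusted p = 7.8e-10). In controls it went the other way, from 10.35 ± 0.20 to 7.40 ± 0.87, and the difference of the changes was 6.31.

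Npas2 rose by 1.69 ± 0.19 in exposed lungs (limma adjusted p = 6.6e-08) and by 3.15 in controls. A second, dimmer Npas2 probe (mean log2 signal 7.26) differed by 0.21 in exposed lungs, so the size of the Npas2 change depends on the probe. Per2 fell by 1.51 ± 0.21 (limma adjusted p = 3.3e-06) and by 2.96 in controls. Cry1 read 10.69 to 10.99 at D0 and 9.14 to 9.59 at D28, a decrease of 1.45 ± 0.13 (limma adjusted p = 2.5e-10), against a control difference of -0.32 that was not called. Dbp read 13.74, 13.24, 13.38, 13.20 and 13.23 at D0 and 13.12, 13.30, 14.59, 14.66 and 14.68 at D28. Its exposed difference of 0.71 was not called (adjusted p = 0.096), and it was called without the lung labelled exposed D28 replicate 1 (0.95, adjusted p = 0.011) or without replicate 2 (0.90, adjusted p = 0.025). The same 2 lungs read 9.82 and 9.71 for Arntl, against 8.66 to 8.85 in the other 3 and 8.75 to 9.14 at D0. In controls, Dbp fell by 4.51 and Arntl rose by 2.95. Of 11 genes of the negative arm and output, 2 were called higher and 1 lower in exposed lungs, while 8 were called lower in controls. The part of the clock genes in other differences between D0 and D28 was not tested.

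Besides Nr1d1, the 7 next largest of the 23 increases that also differed from controls varied in what the controls did. Rab3a, a small GTPase of vesicle release, read 7.90, 8.24, 7.59, 8.16 and 7.94 at D0 and 8.88, 9.22, 9.02, 9.09 and 9.11 at D28 (2.14-fold higher, limma adjusted p = 6.7e-09). At D28 all 5 lay above the control mean of 8.42 ± 0.24, and the control change of 0.19 was not called. Grin2c, an NMDA receptor subunit, rose by 1.04 ± 0.10 to between 9.81 and 10.30, above the control D28 mean of 9.42 ± 0.12. The control mean of Grin2c rose as well, and the difference of the changes was 0.69. Cct6b, a chaperonin subunit, rose by 0.82 from between 7.76 and 8.53 to between 8.81 and 9.21, where controls stood at 8.76 ± 0.17 and 8.89 ± 0.13.

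Alox15, the lipoxygenase that makes 12- and 15-hydroxy lipids in macrophages and airway cells, read 7.35, 6.58, 7.13, 6.80 and 7.41 at D0 and 7.86, 8.04, 7.94, 7.77 and 7.84 at D28 (change 0.84 ± 0.13, limma adjusted p = 2.3e-05). The D28 rats remained below the control D28 mean of 8.40 ± 0.21, so this transcript had been lower than in controls and was closer to them at D28. With slide as a block, the difference of its change from that of controls was 0.58, under the fold limit. For Doc2a, Ccdc116 and Rprml, which rose by 1.33, 1.28 and 0.88, the control difference had the opposite sign (-0.56, -1.81 and -0.70). The call for Ccdc116 was lost when any of 7 single rats was left out, with adjusted p up to 0.13.

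Of 16 alternative activation genes tested, 2 were called higher (12.5% against 0.734% of all genes) and 3 lower (18.75% against 0.69%). The higher ones were Il13ra2 and Alox15, and the lower ones Il13, Ccl17 and Chia. In the other remaining lists few genes were called. Ddit4, a stress and glucocorticoid responsive inhibitor of mTOR, read 11.02, 11.25, 11.24, 12.73 and 11.22 at D0 and 12.80, 12.94, 13.29, 13.31 and 13.32 at D28 (change 1.64 ± 0.31, limma adjusted p = 0.00045), without overlap. Acot1, an acyl-CoA thioesterase, rose by 1.22 ± 0.25 (limma adjusted p = 0.0013), the 1 gene of 20 for fatty acid oxidation. Mt2A, a metallothionein, fell by 0.66, Ifit3, an interferon-induced gene, by 0.68 next to a control decrease of 0.53, and Chia, an acidic chitinase, by 0.66. Mcpt2, a mast cell protease, rose by 0.73 ± 0.19 (limma adjusted p = 0.017), and without the lung labelled exposed D28 replicate 2 its adjusted p was 0.065. Mcpt2 was the 1 gene called higher among 10 mast cell genes, and 0 were called lower (10.0% higher, against 0.734% of all genes). The fit that blocked on slide gave 3 higher and 0 lower in this list, where 1.04% of all genes came out higher. The list median without that block was 0.56.

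No gene was called in exposed lungs in 16 of the 35 lists, among them MHC class II (11 genes), T and NK cells (26), B and plasma cells (14), alveolar type 2 (12) and type 1 cells (8), ciliated epithelium (16), endothelium (13), smooth muscle (9) and red blood cells (10). Their medians lay between -0.17 for ciliated epithelium and 0.24 for cardiac and skeletal muscle, the genes in which 1 lung stood apart. Alveolar type 1 cells had a median of 0.23, and all 8 of their differences were positive. The mean level of the red blood cell genes ran from 10.86 to 11.22 at D0 and from 11.01 to 11.25 at D28. The mean of the 22 neutrophil genes ran from 8.15 to 8.66 at D0 and from 8.13 to 8.40 at D28. The part of shifts in cell makeup in the differences above was not tested.

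**Figure D5:**
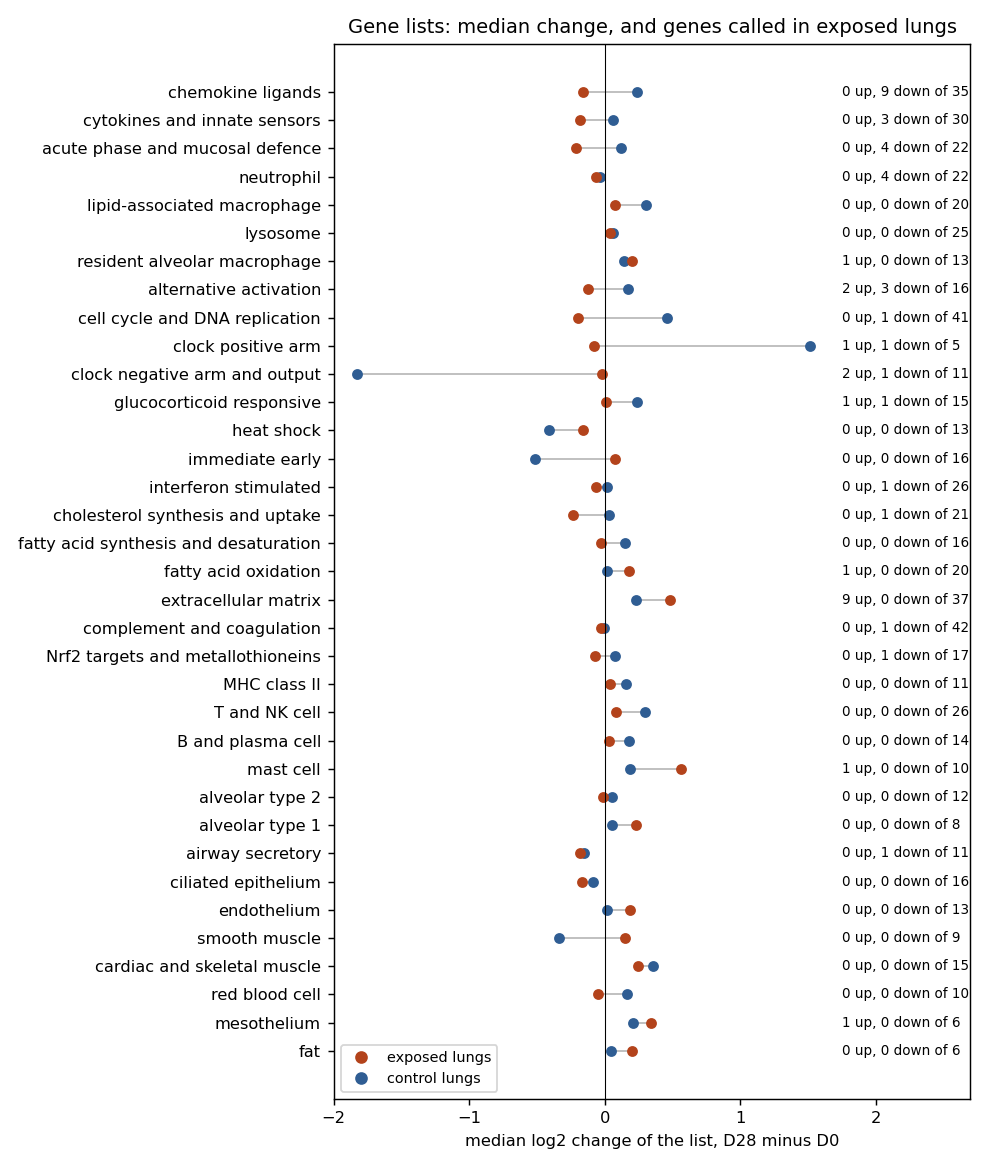
Median log2 change from D0 to D28 over each of 35 gene lists, in exposed lungs (red) and control lungs (blue), with the number of genes called higher (up) and lower (down) in exposed lungs of the number tested. Chemokine ligands and extracellular matrix hold the most calls (9 each), and the 2 clock lists and the cell cycle list show the widest gaps between exposed and control lungs.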

How the data were processed

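Accessory lobe RNA of 50 rats (10 groups of 5) was hybridised to 1-colour Agilent arrays. The deposited scanner files hold intensities (gProcessedSignal, background-corrected by the authors' Agilent Feature Extraction, version 11.0.1.1 per the file headers), and the deposited value table holds the authors' log2 values, used as an alternative. Of 58717 gene spots, outlier-flagged ones were left out and the rest averaged per probe on the log2 scale. All arrays were quantile normalized (limma 3.58.1, R 4.3.3), and 29549 of 30367 probes were kept because 5 or more arrays read them above the 95th percentile of that array's negative control spots. The probe with the highest mean stood for each of 25208 genes. Averaging all spots by gene name was an alternative. A group-means model over the 50 arrays (lmFit, eBayes, Benjamini-Hochberg) gave each comparison. The number of arrays limits their precision. A call needed an adjusted p under 0.05 and 1.5-fold. Where no array of a group was well above background, only a bound is given, against the dimmest signal well above background. The scripts were tested on simulated data. Genes were named by rule: those called with and without slide as a block, 8 largest per direction, 8 per direction among those differing from controls, up to 2 per list, and a followed set. Members and lists were chosen with earlier results of these data known. RefSeq (GRCr8) supplied promoters.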

Additional observations from a re-analysis of the deposited data

Results flagged for a closer look

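Within the groups of 5, 4 values of the named genes stood farther from the other 4 rats than Dixon's 95% limit allows, over 108 groups examined, of which chance sets apart about 1 in 20. They were Lcn2 in the lung labelled exposed D28 replicate 2 (11.28), Tnf (12.30) and Ddit4 (12.73) in exposed D0 replicate 4, and Il1b in exposed D0 replicate 5 (13.18).

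For 32 of the 54 named genes the change over 28 days differed between exposed and control lungs (limma, interaction contrast, adjusted over all genes). Among all 25208 genes tested, 405 (1.61%) were called in this contrast. Some of the named genes had been chosen because they were called in it, so their passing was fixed in advance. The count of 32 is therefore a description and not an independent result. All differences are given as the exposed change minus the control change, on the log2 scale. The chemokine ligands were Cxcl5 (-4.12, with control D0 arrays not well above background, so its size is not settled), Ccl12 (-2.94), Ccl2 (-2.04), Cxcl1 (-1.92) and Ccl7 (-1.82). Other genes of inflammation and defence were Lcn2 (-2.63), Tnfrsf9 (-2.23), Slc26a4 (-2.11), Tnf (-1.37), Bpifb1 (-1.31), S100a8 (-1.05), Mmp12 (-1.04), Mt2A (-0.91), Retnla (-0.89) and S100a9 (-0.81). Prss30, Tnn and Tmc5 differed by -2.93, -2.27 and -2.21, and Mki67 by -0.95. Among clock genes, Nr1d1 (6.31), Dbp (5.22) and Per2 (1.46) were positive, and Arntl (-2.73), Npas2 (-1.47) and Cry1 (-1.13) negative. The remaining positive differences were Ccdc116 (3.10), Doc2a (1.90), Rprml (1.58), Rab3a (0.91), Cct6b (0.70), Grin2c (0.69) and Alox15 (0.68).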

How the results depend on the processing

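Of 1347 gene results recomputed under the alternatives, 1249 kept their direction and their side of the call limit, or moved by less than the spread. The exposed count of 359 was 233 when only the D0 and D28 arrays were fitted, 206 with normexp background correction, 947 without the fold limit and 1090 with an unadjusted p. Control counts, 627 as reported, were 301 with normexp, 357 with the authors' value table, 1784 without the fold limit and 1395 unadjusted. The difference of the changes, called for 405 genes, gave 646 with slide as a block, 248 with only D0 and D28 arrays, 657 without the fold limit and 1327 unadjusted. Genes called in both numbered 93, and 150 with slide as a block, 144 with slide and scan day as a block (chosen after seeing the data), 206 without the fold limit and 370 unadjusted. The cause of these shifts was not tested, except that looser limits admit more genes by construction. Leaving out 1 rat at a time gave 311 to 396 exposed, 500 to 807 control, 342 to 501 difference and 75 to 126 joint calls.

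The replicate block gave 356, 605, 395 and 92. Different rats were used at each time, so the numbers do not pair the animals. Same-numbered rats correlated between -0.37 and 0.34, with differences between slides left in. Spots averaged by gene name gave 351 exposed calls, 315 of them shared. The direction turned for Spp1 with slide and scan day as a block (-0.10), and for Sftpc with normexp (0.032), the authors' value table (0.039) and without 1 of 4 single rats (-0.11 to 0.031 over all single rats left out). Calls of named genes were lost for Il13, Doc2a, Ccdc116, Rprml and Aurkb when only D0 and D28 arrays were fitted, for Slc6a7, Doc2a, Cidec, Il13ra2 and Mcpt2 with normexp, and for Cidec and Mt2A with slide and scan day as a block. Low signal limits Il13, Slc6a7, Rasgef1c and Tnn, and 49 of the 359 called genes were detected in neither exposed group.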

Other observations

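The 4 enzyme genes Fmo2, Inmt, Cdo1 and Cyp2e1 were lower at D28 in both exposed and control lungs. They were named after their values were seen and stand for no wider group: among other called enzyme genes, Cyp4b1 rose by 0.66, Acsm5 by 0.91 and Cyp11b1 by 1.07 in exposed lungs. Fmo2, a flavin monooxygenase abundant in lung, fell by 0.89 in exposed and by 0.90 in control lungs, and Inmt, an indole methyltransferase, by 1.04 and 1.17. Cdo1, the cysteine dioxygenase, fell by 0.87 and 1.09. Cyp2e1, a cytochrome P450, read 11.07, 10.74, 10.69, 10.32 and 10.94 in exposed D0 rats and 10.25, 9.66, 10.27, 9.54 and 9.92 in exposed D28 rats, a decrease of 0.82, and fell by 2.02 in controls. For Fmo2, Inmt and Cdo1 the difference between the changes was not called, and for Cyp2e1 it was (1.20, limma adjusted p = 0.001).

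Proteases of the Mcpt8 family, known from basophils and mast cells, were higher at D28 in both. Mcpt8 rose by 0.82 in exposed and 0.91 in control lungs, Mcpt9 by 0.87 and 1.12, and Mcpt10 by 0.81 and 0.86. These genes are close copies of each other, so their probes may share signal. Foxn4, a transcription factor, read between 7.24 and 7.85 in exposed D0 rats and between 5.41 and 6.55 in exposed D28 rats, and moved the opposite way in controls, from 4.75 to 6.58.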
